A study of Mus musculus with 12 samples.

Results

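The genes described here are 33 components and targets of the NF-κB and toll-like receptor pathways, together with inflammatory cytokines, taken by gene name from a table of 55586 genes. All 33 names were found in the table, once each. They comprise 5 NF-κB transcription factors, 8 inhibitors and feedback genes, 8 receptors, adaptors and signalling proteins, 7 cytokines and mediators, and 5 survival genes and effectors. RNA sequencing was run on cultured mouse peritoneal macrophages, phagocytes of the abdominal cavity. The 12 libraries form 4 groups of 3: control, IFN-γ (the activating cytokine interferon gamma, written IFN y in the labels), Remodelin hydrobromide, and Remodelin hydrobromide with IFN-γ, where Remodelin came first. Remodelin is an inhibitor of NAT10, the enzyme that places the N4-acetylcytidine mark on RNA, and the series concerns loss of that mark in macrophages of liver cancer. The labels give no strain, animal age, dose or time, and no group received a toll-like receptor ligand according to them. Nothing in the labels says that libraries of 1 group came from separate animals or cultures, so the p-values speak of the spread among these libraries alone, and that spread may be technical.

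NF-κB is a family of dimeric transcription factors held in the cytoplasm by inhibitor proteins of the IκB family. Toll-like receptors, interleukin-1 receptors and tumour necrosis factor receptors signal through adaptors, ubiquitin ligases and kinases to a complex that marks the inhibitors for destruction, and the released dimers enter the nucleus. Among the genes they switch on are cytokines, survival proteins and the pathway's own inhibitors, which end the response. In macrophages IFN-γ is known to raise the response to toll-like receptor ligands and is by itself a weaker inducer of NF-κB targets than those ligands.

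Library totals ran from 15917454 to 19418665 counts, with 17353 to 18175 genes detected. The floor of 3 counts stood at 0.154 to 0.188 CPM (read counts scaled to a common library size), here from the library totals alone. The CPM values below were also scaled by the TMM method. Macrophage markers summed to between 15110 and 25334 CPM in every library, of which Lyz2 was the main part, and 9 of the 10 were tested. Of the resident peritoneal macrophage genes among them, Gata6 had 149 to 386 reads and Icam2 had 63 to 127 in a library, while Timd4 had at most 2. Summed markers of neutrophils, mesothelial cells and B cells were lower in the libraries with Remodelin, in each case through a few genes. Summed neutrophil markers were at 69.3 to 83.4 CPM in control and 70.5 to 75.3 with IFN-γ, against 55.9 to 57.3 with Remodelin and 53.3 to 55.4 with both. Of the 8 neutrophil markers 5 were tested and 2, Mmp8 and Mmp9, were lower in the average Remodelin effect, while Csf3r averaged 24.9 CPM in control and 26.0 with Remodelin, S100a9 averaged at most 0.515 CPM in a group and Ly6g had at most 1 read in a library. Summed mesothelial markers were at 78.9 to 109 CPM without Remodelin and at 44.1 to 56.4 with it, with 3 of 7 lower (Upk3b, Upk1b and Krt19). Upk3b carried most of that difference, with means of 46.5 CPM in control and 11.4 with Remodelin. Krt18, by contrast, went from 1.71 to 3.50, Krt8 from 4.79 to 6.08 and Msln from 0.936 to 1.30 between the same groups. Summed B cell markers were at 15.9 to 21.7 CPM without Remodelin and at 10.5 to 12.8 with it, with 1 of 5 tested lower (Ighm). No marker of these 3 lists was at 0 in all 12 libraries. T cell markers summed to 0.489 to 1.36 CPM without Remodelin and to 0.256 to 0.466 with it, and none passed the count filter. Summed dendritic cell markers averaged 4.23 CPM in control, 4.01 with IFN-γ, 2.93 with Remodelin and 3.47 with both. Mast cell markers averaged 3.17, 2.31, 2.07 and 1.57 CPM in the same order. The part of these cells in the results below was not tested. Nat10 RNA itself differed by -0.02 ± 0.15 (log2 fold change ± SE) in the average Remodelin effect.

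Promoter windows of 300 bases, 250 before and 50 after the start of transcription, were read from RefSeq (GRCm38.p6), which gave windows for 28 of the 33 genes. They were searched on both strands for the κB decamer consensus and for the IFN-γ-activated site TTCNNNGAA. A κB match was present in 12 of the 28 genes (42.9%), against 9.55% of the 27025 genes in the table. The IFN-γ-activated site was present in 5 of the 28 (17.9%), against 9.55% of all. Such a match describes the letters of the window and is no evidence of binding in these cells. The first window below is that of Bcl3, which is called for a change further on. Ripk2, also called there, was among the 5 genes without a window. The others shown are those of Nfkbia and Tnip1, inhibitors whose transcription NF-κB is known to induce. The Tnip1 window was picked because it held both motifs and overlapping κB matches. The windows are written 5′ to 3′ on the strand of the gene, the minus strand for all 3, with matches in capitals.

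Bcl3, chr7:19822706-19823005: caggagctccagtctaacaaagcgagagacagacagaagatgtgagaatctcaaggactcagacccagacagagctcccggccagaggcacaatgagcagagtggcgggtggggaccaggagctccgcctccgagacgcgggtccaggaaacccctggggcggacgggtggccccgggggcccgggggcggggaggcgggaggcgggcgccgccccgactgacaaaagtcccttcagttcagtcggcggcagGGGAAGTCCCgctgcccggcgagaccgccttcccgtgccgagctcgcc
Nfkbia, chr12:55492598-55492897: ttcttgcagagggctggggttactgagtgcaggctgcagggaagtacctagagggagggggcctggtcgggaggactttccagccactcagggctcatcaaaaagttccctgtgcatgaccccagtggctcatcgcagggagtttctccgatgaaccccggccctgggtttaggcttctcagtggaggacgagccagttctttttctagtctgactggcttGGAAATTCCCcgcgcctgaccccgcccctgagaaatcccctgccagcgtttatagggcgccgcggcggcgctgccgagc
Tnip1, chr11:54962891-54963190: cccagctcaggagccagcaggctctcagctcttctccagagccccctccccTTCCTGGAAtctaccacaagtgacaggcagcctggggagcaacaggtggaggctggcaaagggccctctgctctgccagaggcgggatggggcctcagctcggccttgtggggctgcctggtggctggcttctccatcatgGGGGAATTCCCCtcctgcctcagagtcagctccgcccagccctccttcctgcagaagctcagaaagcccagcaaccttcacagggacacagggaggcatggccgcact

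In Bcl3 the κB match GGGAAGTCCC lay at positions 253 to 262 of the window, just after the start site, and reads as a match on both strands. In Nfkbia the match lay on the opposite strand alone, and it reads GGAAATTCCC at positions 222 to 231 of the strand printed. Tnip1 held overlapping κB matches at positions 193 to 204, whose core GGGAATTCCC also stood in the windows of Nfkb2 and Tlr2, and an IFN-γ-activated site at positions 52 to 60.

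In control cells Il1b, Il6 and Ptgs2 were at or near the limit of detection, while the other genes, Tnf, Il1a and Il18 among them, were read well above it. Levels between genes are compared in the authors' FPKM, a fragment count per kilobase of transcript scaled to the library, which corrects for length. Tnfaip2, an NF-κB target of the exocyst family, stood highest at 100 ± 4.38 FPKM (mean ± SD, n = 3), apart from all others in every control library. The IL-1 receptor antagonist Il1rn (24.6 ± 2.99), the transactivating subunit Rela (23.7 ± 1.09) and the ubiquitin-binding inhibitor Tnip1 (22.9 ± 0.547) followed and overlapped. Next came the IκBα gene Nfkbia (20.1 ± 0.883) and the toll-like receptor adaptor Myd88, then Ticam1, Irak2 and Nfkb2 between 13.5 and 14.9. Sod2 stood below these and above all that follow, without overlap. Then came Bcl3, Relb, Icam1 and Zc3h12a, between 8.46 and 6.58 on average, of which Bcl3 overlapped Icam1.

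A broad middle group of 13 genes, from Il1a at 4.96 FPKM to Nlrp3 at 1.89, had neighbours that overlapped. It held both toll-like receptors, with Tlr2 at 2.68 and Tlr4 at 2.29, and the cytokines Tnf at 3.23 and Il18 at 3.72. Rel, Traf1 and Nfkbiz were lower, between 1.05 and 0.530 FPKM. Ptgs2, which encodes cyclooxygenase 2, was at 0.110 FPKM and had between 5 and 16 reads in each of the 12 libraries.

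Il1b and Il6, the inflammatory cytokine genes usually raised by toll-like receptor ligands, did not pass the count filter in any comparison. Il1b had 0, 4 and 2 reads in the control libraries, 0 in each IFN-γ library, 2, 1 and 2 with Remodelin, and 2, 7 and 2 with both. Il6 had 0 in each control library, 0, 1 and 0 with IFN-γ, 1, 0 and 2 with Remodelin, and 3, 2 and 1 with both. A difference between groups was not detectable at this depth for either gene. From the wider list of pathway genes, Nos2 and Il23a had 0 reads in all 12 libraries, and Il12b, Il12a and Csf2 had at most 3 in any of them. Il10 had 4 to 15 reads.

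**Figure D1:**
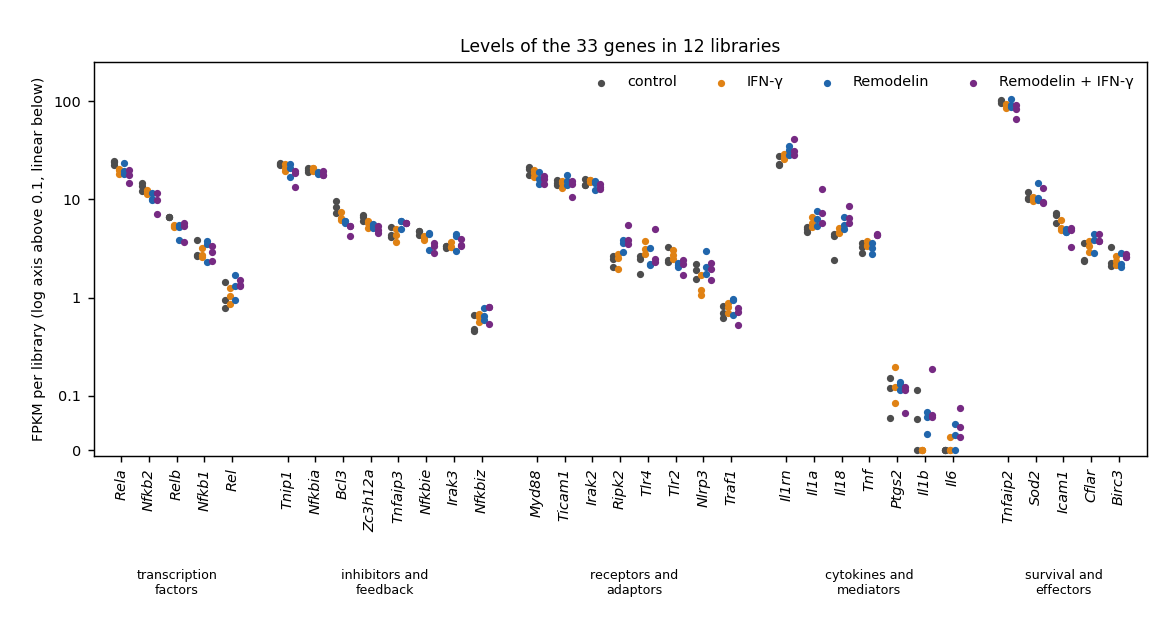
Level of each of the 33 genes in each of the 12 libraries, in the authors' FPKM (log axis above 0.1, linear below), grouped by role and coloured by treatment. Tnfaip2 stands near 100 in all groups, while Ptgs2, Il1b and Il6 lie at or below 0.2, and the colours of a gene lie close together beside the distance between genes.

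Differences were tested in 1 edgeR quasi-likelihood fit of 13474 genes, which included 31 of the 33, and a gene was called at an adjusted p under 0.05. For IFN-γ none of the 31 passed, either on untreated cells or on cells given Remodelin, where 2 and 0 of all 13474 genes passed. Over both levels of IFN-γ together, Ripk2 was called higher and Bcl3 lower with Remodelin, and the other 29 tested genes did not pass. These are 6.45% of the 31, against 7.04% of all genes, and neither passed in the separate Remodelin comparisons of this fit. The count fell to 0 in some fits without 1 library. With library trends in GC content removed only Ripk2 was called. Since these are bulk samples, fewer cells of a type and less RNA per cell cannot be told apart.

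In numbers, edgeR called 0 of 31 for Remodelin against control, where it called 0.846% of all genes. At an unadjusted p under 0.05 there were 7 (22.6%, against 12.7% of all genes), 3 higher and 4 lower, and DESeq2 called 0 (1.73% of all genes). Of all genes edgeR called 0.193% higher and 0.653% lower in this comparison (26 and 88 genes, and 63 and 127 after removal of library trends in GC content). For both agents against IFN-γ alone, edgeR called 0, where it called 0.364% of all genes. Here 6 had an unadjusted p under 0.05 (19.4%, against 16.2%), 5 higher and 1 lower, and DESeq2 called 1, Ripk2 (2.28% of all genes). The average Remodelin effect sets 6 libraries against 6, and this contrast was chosen with earlier results of these data known. It called 2 of 31 and 7.04% of all genes (2.24% higher and 4.8% lower), so the share of the 31 called was near the background. In that effect 16 had an unadjusted p under 0.05 (51.6%, against 26.1%), 7 higher and 9 lower, and DESeq2 called 6, where it called 9.62% of all genes. The count of 2 ran from 0 without control 2, IFN-γ 1 or Remodelin 3 to 6 without library 2 of both agents.

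The 31 changes were small and balanced in sign. The median log2 fold change was 0.02 for Remodelin against control (all genes 0.01), -0.10 for both agents against IFN-γ (all genes 0.03) and 0.00 for the average Remodelin effect (all genes 0.03). In the average effect the values ran from -0.49 to 0.66. The Remodelin effects with and without IFN-γ come from separate libraries, and they had the same sign for 26 of the 31 (83.9%), against 74.1% of all genes. The interaction, which tests whether the Remodelin effect differed with IFN-γ, called 0 of 31 by edgeR (0.00742% of all genes) and 0 by DESeq2 (0.0041%), and 0 had an unadjusted p under 0.05 (2.3%).

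**Figure D2:**
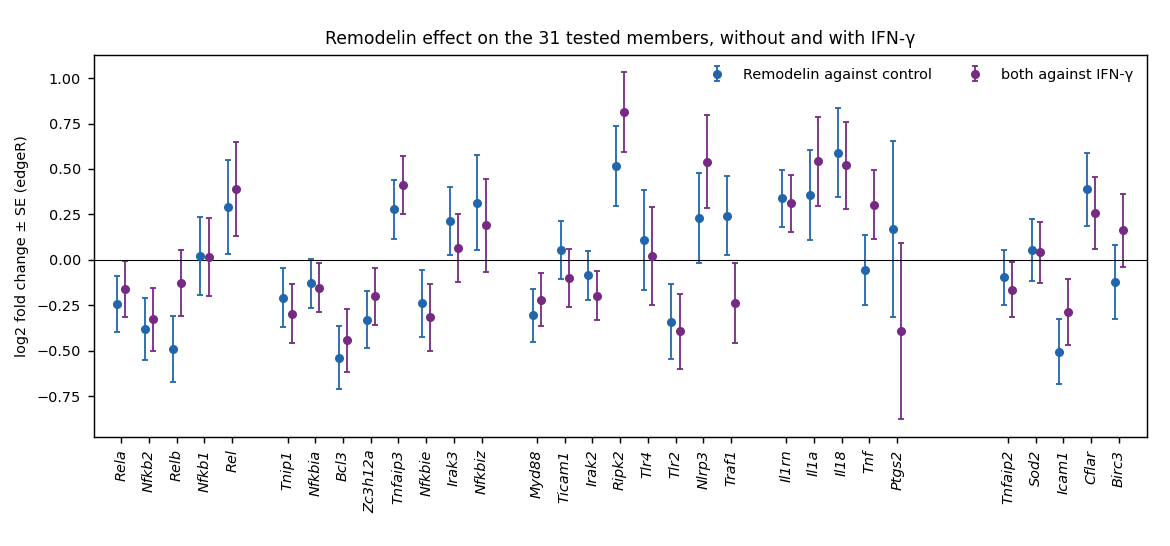
Log2 fold change ± SE (edgeR) of the 31 tested genes for Remodelin against control and for both agents against IFN-γ, grouped by role. The 2 effects have the same sign for 26 of the 31 genes, with Bcl3 lowest and Ripk2 highest in the average of both.

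Among the transcription factors no gene passed the test. In the average Remodelin effect 2 of 5 (40%, against 26.1% of all genes) had an unadjusted p under 0.05, both with negative values (median of the 5, -0.20). With the GC trend of each library removed the share over all 31 genes was 22.6%, against 21.4% of all genes. The shares by role, here and in the paragraphs below, were taken without that removal and rest on 5 or 8 genes each. Relb, the partner of p52 in the non-canonical pathway, had 26.2, 26.3 and 26.0 CPM in control, 20.4, 21.0 and 21.9 with IFN-γ, 19.2, 21.6 and 15.0 with Remodelin, and 14.6, 21.0 and 22.4 with both. The control libraries stood above all 9 treated ones, which overlapped among themselves. Its log2 fold change for Remodelin against control was -0.49 ± 0.18 (edgeR adjusted p = 0.253), and the average effect was -0.31 ± 0.13 (edgeR adjusted p = 0.142). The average was -0.19 without library 1 of both agents and -0.13 with the GC trend of each library removed. Nfkb2, the gene of p52 itself, had an average of -0.36 ± 0.12 (edgeR adjusted p = 0.0836), and of -0.15 with the GC trend removed (edgeR adjusted p = 0.341). Rel, the c-Rel subunit, had the highest value of the 5 at 0.34.

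Among the 8 inhibitors and feedback genes Bcl3 fell. In the average Remodelin effect 5 in all (62.5%, against 26.1% of all genes) had an unadjusted p under 0.05, 1 higher and 4 lower. Bcl3 (ENSMUSG00000053175, chromosome 7) encodes a nuclear IκB protein that binds p50 and p52 dimers on DNA and can repress or activate their targets. It had 21.3, 24.3 and 17.9 CPM in control, 16.4, 15.4 and 18.9 with IFN-γ, 13.7, 15.1 and 14.9 with Remodelin, and 10.7, 13.4 and 13.2 with both. All 6 libraries with Remodelin were below all 6 without it.

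The average Remodelin effect on Bcl3 was -0.49 ± 0.12 on the log2 scale (edgeR adjusted p = 0.0253). The separate values were -0.54 ± 0.17 against control (edgeR adjusted p = 0.179) and -0.44 ± 0.17 on IFN-γ (edgeR adjusted p = 0.232). The call was lost without control 2 (edgeR adjusted p = 0.0880), IFN-γ 1 (0.0642), IFN-γ 3 (0.0678), Remodelin 3 (0.0544) or library 1 of both agents (0.0509), while the change stayed between -0.54 and -0.41. It was also lost when library trends in transcript GC content were removed (log2 fold change -0.25, edgeR adjusted p = 0.182).

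Tnfaip3, the A20 ubiquitin-editing enzyme that switches off signalling to NF-κB, had 38.8, 30.3 and 31.3 CPM in control, 31.8, 26.8 and 36.5 with IFN-γ, 34.7, 43.4 and 43.6 with Remodelin, and 42.3, 42.3 and 41.9 with both. The libraries with both agents were above all those with IFN-γ alone, while Remodelin 1 lay below control 1. The value was 0.41 ± 0.16 on IFN-γ (edgeR adjusted p = 0.232) and 0.34 ± 0.11 on average (edgeR adjusted p = 0.0765), so it did not pass. DESeq2 called the average effect (adjusted p = 0.0206), and with the GC trend of each library removed it was 0.25 (edgeR adjusted p = 0.112). Tnip1, Nfkbie and the mRNA-degrading nuclease gene Zc3h12a had averages from -0.28 to -0.25 and did not pass. With the GC trend removed their averages ran from -0.12 to -0.06. Nfkbia differed little between groups, with means of 32.6 ± 1.33 CPM in control, 33.2 ± 1.46 with IFN-γ, 29.8 ± 0.525 with Remodelin and 29.9 ± 1.51 with both (SD, n = 3).

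Among the 8 receptors, adaptors and signalling genes Ripk2 rose. In the average Remodelin effect 4 (50%, against 26.1% of all genes) had an unadjusted p under 0.05, 2 in each direction. Ripk2 (ENSMUSG00000041135, chromosome 4) encodes the kinase that carries the signal of the bacterial peptidoglycan sensors NOD1 and NOD2 to NF-κB. It had 7.14, 5.76 and 7.49 CPM in control, 7.24, 5.54 and 7.90 with IFN-γ, 7.88, 10.3 and 11.0 with Remodelin, and 15.4, 10.9 and 10.1 with both. Each Remodelin group lay above its own comparison group, and Remodelin 1 alone fell within the range of the libraries without Remodelin, just under IFN-γ 3.

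The average Remodelin effect on Ripk2 was 0.66 ± 0.16 on the log2 scale (edgeR adjusted p = 0.0188). Apart, it was 0.52 ± 0.22 against control (edgeR adjusted p = 0.336) and 0.81 ± 0.22 on IFN-γ (edgeR adjusted p = 0.114), and the latter was called by DESeq2 (adjusted p = 0.0272). The average was called with the GC trend removed as well (log2 fold change 0.58, edgeR adjusted p = 0.0167). The call was lost without control 2 (edgeR adjusted p = 0.0681), IFN-γ 1 (0.0520), IFN-γ 2 (0.0648) or Remodelin 3 (0.0528), while the change stayed between 0.59 and 0.73.

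Other genes of this role did not pass. Tlr2, the receptor for bacterial lipopeptides, and Myd88 had average Remodelin effects of -0.37 ± 0.15 and -0.26 ± 0.10. Tlr4, the lipopolysaccharide receptor, had 14.1, 14.8 and 9.66 CPM in control, 15.7, 20.9 and 17.8 with IFN-γ, 11.5, 12.1 and 17.9 with Remodelin, and 28.3, 14.1 and 12.9 with both. The IFN-γ libraries stood above the control ones, and library 1 with both agents was far above its 2 partners. Nlrp3, the inflammasome sensor, had 7.90, 6.35 and 9.01 CPM in control, 6.96, 4.30 and 4.92 with IFN-γ, 8.01, 12.1 and 7.17 with Remodelin, and 6.18, 9.29 and 8.04 with both. Its groups overlapped in every comparison. Traf1, a signalling adaptor of tumour necrosis factor receptors, had 5.52, 7.22 and 6.19 CPM in control, 7.08, 7.86 and 6.24 with IFN-γ, 8.14, 5.88 and 8.38 with Remodelin, and 4.62, 6.99 and 6.29 with both. Traf1 had the smallest p of the 31 in the interaction (-0.48 ± 0.31, edgeR adjusted p = 1.00), and its groups overlapped throughout.

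Among the cytokines and mediators no gene passed the test, although 4 of the 5 tested had positive average Remodelin effects (median of the 5, 0.33). An unadjusted p under 0.05 was found for 3 (60%, against 26.1% of all genes). Il18, an IL-1 family cytokine that drives IFN-γ production by lymphocytes, had 2.53, 4.45 and 4.62 CPM in control, 4.87, 5.32 and 4.75 with IFN-γ, 6.53, 5.19 and 5.72 with Remodelin, and 8.87, 5.95 and 6.64 with both. Both Remodelin groups lay above their comparison groups without overlap, as did IFN-γ above control. The average Remodelin effect was 0.55 ± 0.17 (edgeR adjusted p = 0.0604), and DESeq2 called it (adjusted p = 0.0320). With the GC trend of each library removed it was 0.38 (edgeR adjusted p = 0.214).

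Il1a, an alarmin of the IL-1 family, had 10.5, 9.23 and 9.94 CPM in control, 10.4, 11.5 and 13.3 with IFN-γ, 11.9, 10.7 and 15.3 with Remodelin, and 25.4, 11.5 and 14.4 with both. Library 1 with both agents was far above the other 11, and the average Remodelin effect was 0.45 ± 0.17 (edgeR adjusted p = 0.119). It was 0.28 without that library and 0.20 with the GC trend of each library removed. Il1rn, the antagonist of the same receptor, had an average of 0.33 ± 0.11 (edgeR adjusted p = 0.0821), and of 0.098 with the GC trend removed (edgeR adjusted p = 0.655).

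Tnf, the central inflammatory cytokine of macrophages, had 5.52, 5.92 and 4.62 CPM in control, 6.23, 5.54 and 5.78 with IFN-γ, 5.57, 4.56 and 5.32 with Remodelin, and 7.31, 7.20 and 7.16 with both. The 3 libraries with both agents stood above the other 9, which overlapped. Against Remodelin alone the difference was 0.49 ± 0.19 (edgeR adjusted p = 0.636), and the interaction for Tnf was 0.36 ± 0.27 (edgeR adjusted p = 1.00).

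Among the survival genes and effectors no gene passed. Icam1, the adhesion molecule that binds leukocyte integrins, had 32.3, 30.2 and 25.3 CPM in control, 27.2, 21.3 and 22.6 with IFN-γ, 19.6, 22.0 and 20.3 with Remodelin, and 14.4, 21.4 and 22.2 with both. The Remodelin libraries were below the control ones without overlap, while those with both agents overlapped IFN-γ alone. The value was -0.51 ± 0.18 against control (edgeR adjusted p = 0.238) and -0.40 ± 0.13 on average (edgeR adjusted p = 0.0698), and DESeq2 called the average (adjusted p = 0.0464). With the GC trend of each library removed the average was -0.24. Cflar, the inhibitor of caspase 8, had an average of 0.32 ± 0.14 (edgeR adjusted p = 0.162). Birc3, Sod2 and Tnfaip2 each had an unadjusted p over 0.05 in the average effect.

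**Figure D3:**
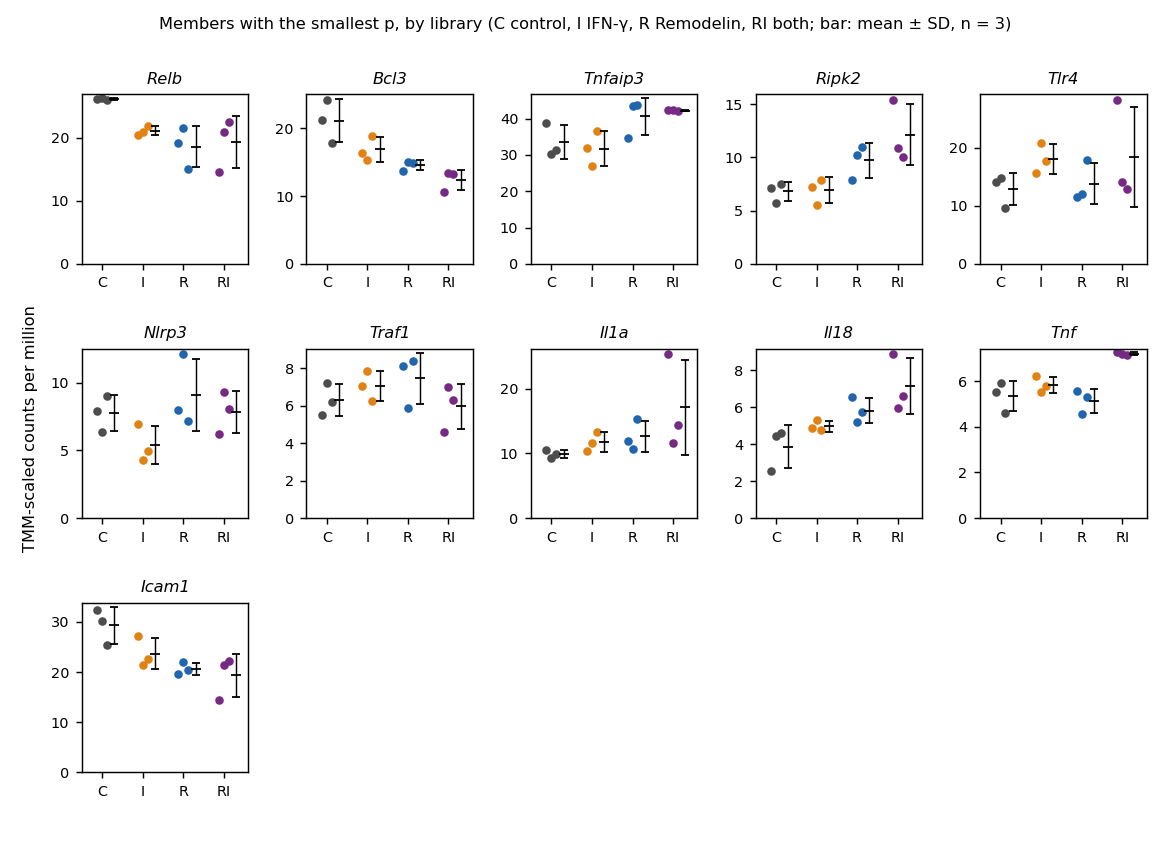
TMM-scaled CPM in each library of the 11 genes that were called or had 1 of the 3 smallest p in a comparison (C control, I IFN-γ, R Remodelin, RI both; bars are mean ± SD, n = 3, and axes start at 0). The 6 Bcl3 points with Remodelin lie at 10.7 to 15.1, below all 6 without it, and library 1 with both agents stands apart for Tlr4 and Il1a.

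IFN-γ left these genes without a called change, and nearly all other genes as well. Of the 13474 genes in the fit, edgeR called 2 against control, mt-Tp and Gm17066, and 1 in the average effect, mt-Tp. The absence of calls was thus not particular to the 31 genes. Against control edgeR called 0 of 31 (0.0148% of all genes), 0 had an unadjusted p under 0.05 (5.37% of all genes) and DESeq2 called 0 (0.0164%). The smallest p were those of Nlrp3 (-0.52 ± 0.25), Bcl3 (-0.32 ± 0.17) and Tlr4 (0.50 ± 0.27), each with an edgeR adjusted p of 0.889. The Bcl3 value was -0.21 without control 2 and the Tlr4 value 0.33 without control 3, and with the GC trend of each library removed they were -0.14 and 0.20. On top of Remodelin edgeR called 0 of 31 (0.0% of all genes), DESeq2 called 0 (0.0041%), and 1, Tnf, had an unadjusted p under 0.05 (7.74%). The others with the smallest p there were Il1a at 0.43 ± 0.24 and Tlr4 at 0.41 ± 0.27. Without library 1 of both agents the Tlr4 value turned to -0.05 and the Il1a value was 0.021. Without Remodelin 3 the Tlr4 value was 0.64, and without library 2 of both agents the Il1a value was 0.65.

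The average IFN-γ effect likewise called 0 of 31 by edgeR (0.00742% of all genes) and 0 by DESeq2 (0.0923%). At an unadjusted p under 0.05 there were 4 (12.9%, the same as for all genes), among them Tlr4 at 0.45 ± 0.19, Tnf at 0.31 ± 0.14 and Bcl3 at -0.28 ± 0.12. Their edgeR adjusted p were 0.355, 0.363 and 0.367. Without library 1 of both agents the Tlr4 value was 0.22, and with the GC trend of each library removed Tlr4 was at 0.16 and Bcl3 at -0.09. IFN-γ effects with and without Remodelin had the same sign for 22 of the 31 (71.0%), against 66.1% of all genes. With the GC trend of each library removed it was 17 of the 31 (54.8%), against 59.1% of all. The standard errors, which ran from 0.13 to 0.49 in comparisons between groups, bound what could be seen for each gene.

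**Figure D4:**
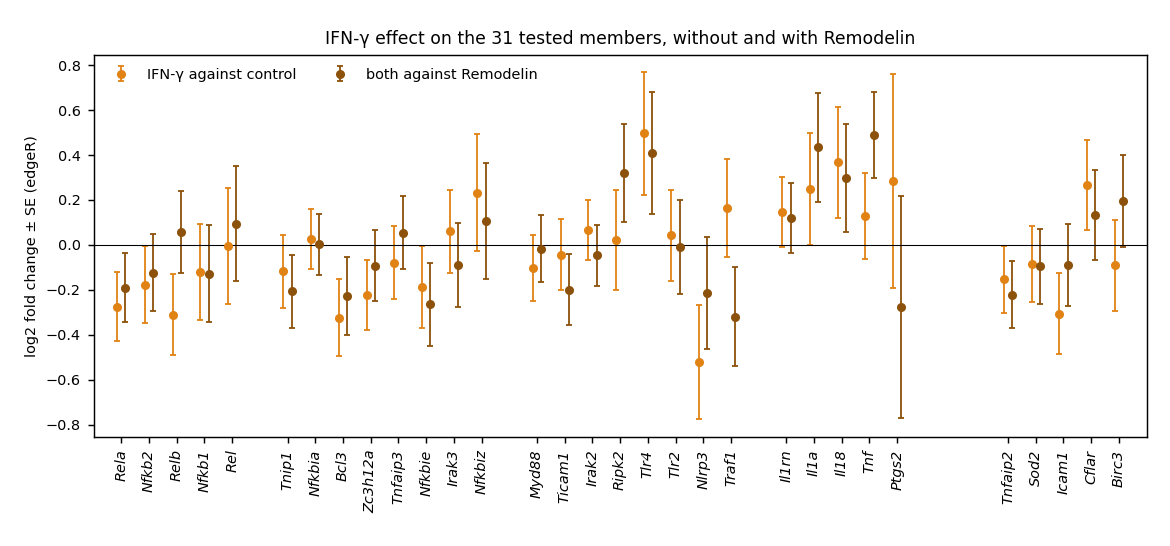
Log2 fold change ± SE (edgeR) of the 31 tested genes for IFN-γ against control and for both agents against Remodelin, grouped by role. None was called, and values against control run from -0.52 for Nlrp3 to 0.50 for Tlr4.

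The sign of the average Remodelin effect mostly went with the base composition of the transcripts. GC content of the longest annotated transcript ran from 39.4% to 62.6% over the 31 genes, with the highest value in Bcl3 and 47.6% in Ripk2. Of the 16 genes at or below the median GC content of 51.0%, 14 had a positive average Remodelin effect (median 0.29), and of the 15 above it 13 had a negative one (median -0.25). Across these genes, which are not independent replicates and share libraries, Spearman's correlation of the effect with GC content was -0.69 (n = 31), beside -0.50 over 13339 genes. With the GC trend of each library removed the correlation was -0.15 over the 31 and -0.01 over all, and the genes below and above the median GC content had median effects of 0.13 and -0.06. The share with an unadjusted p under 0.05 was then 22.6% of the 31 and 21.4% of all genes.

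The same removal moved the medians by role closer together. In the average Remodelin effect they went from -0.20 to -0.13 for transcription factors, from -0.20 to -0.05 for inhibitors, from -0.01 to 0.05 for receptors and adaptors, from 0.33 to 0.20 for cytokines and from 0.02 to -0.10 for survival genes. The GC trends differed between libraries. Correlations of deviation and GC content were 0.12, 0.53 and 0.55 in control and 0.22, 0.03 and -0.17 with IFN-γ. They were 0.26, 0.10 and -0.37 with Remodelin and -0.69, -0.12 and -0.26 with both. The trends thus went partly with treatment, and their removal can also take away a Remodelin effect that goes with GC content. Such an effect and a technical trend cannot be told apart here. Library 1 with both agents had the lowest CPM for 12 of the 31 genes (38.7%, against 23.6% of all genes). Control 2 had the highest for 7 (22.6%, against 13.4%).

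**Figure D5:**
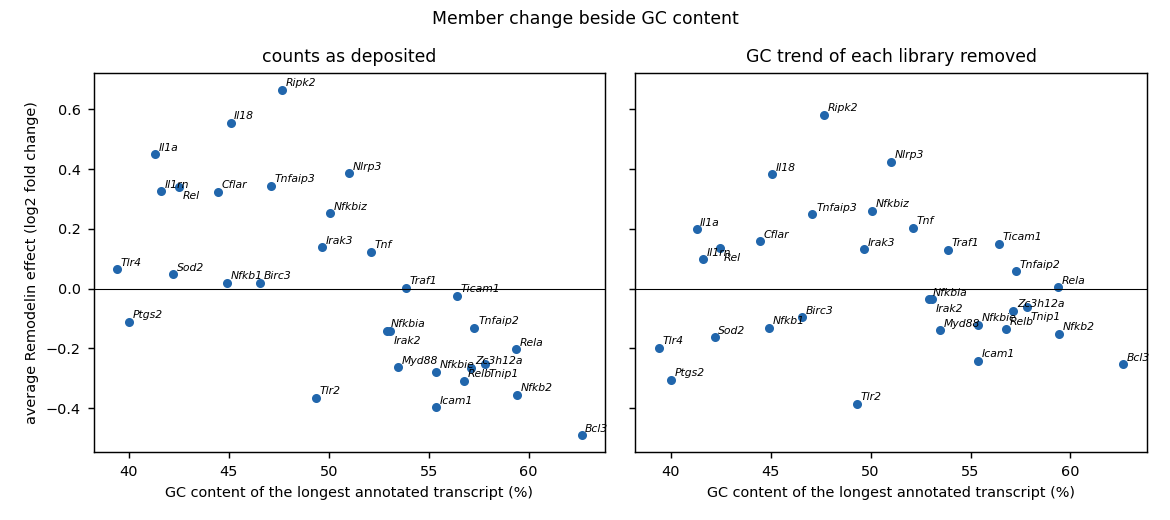
Average Remodelin effect (log2 fold change, edgeR) of the 31 tested genes beside the GC content of their longest annotated transcript, from the counts as deposited (left) and with the GC trend of each library removed (right). On the left most genes above 51.0% GC lie below 0, while on the right the slope is flatter and Ripk2 stays highest.

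Of 78 other genes of the pathway 72 were tested, and the average Remodelin effect lowered 3 and raised 0 by edgeR, while DESeq2 called 1 higher and 5 lower. Over all genes edgeR called 7.04% and DESeq2 9.62%, so the list's calls, 4.17% and 8.33%, were not above the background. In this effect 17 of the 72 (23.6%) had an unadjusted p under 0.05, against 26.1% of all genes, and the median log2 fold change was 0.00. In the other 6 comparisons edgeR called 0 of the 72, with 2 to 9 at an unadjusted p under 0.05, and DESeq2 called 0, except for 1 with both agents against IFN-γ.

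Traf2, a ubiquitin ligase adaptor of tumour necrosis factor receptors, had means of 33.8 ± 3.80 CPM in control, 30.9 ± 4.48 with IFN-γ, 22.4 ± 3.99 with Remodelin and 23.6 ± 0.739 with both (SD, n = 3). All 6 libraries with Remodelin were below all 6 without it, and the change was -0.49 ± 0.12 (edgeR adjusted p = 0.0219). Rbck1, which encodes HOIL-1 of the linear ubiquitin complex, had means of 131 ± 35.7, 122 ± 8.26, 94.0 ± 11.9 and 80.9 ± 16.8 CPM in the same order (SD, n = 3). Control 1, at 94.6, lay within the range of the Remodelin libraries, and the change was -0.54 ± 0.14 (edgeR adjusted p = 0.0279).

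Il1r2, the decoy receptor that binds IL-1 without signalling, was low, with means of 1.34 ± 0.614, 2.05 ± 0.105, 0.940 ± 0.631 and 0.466 ± 0.134 CPM in that order (SD, n = 3). The Remodelin libraries overlapped the control ones, while those with both agents lay below those with IFN-γ alone. The change was -1.33 ± 0.33 (edgeR adjusted p = 0.0257). The sum of neutrophil markers given above was also lower with Remodelin, with Mmp8 and Mmp9 called, but that list was mixed. From control to Remodelin, mean S100a8 went from 19.1 to 16.4 CPM and mean Cxcr2 from 0.738 to 0.806. The part of such cells in the Il1r2 change was not tested. Each of these 3 calls was lost in several of the fits without 1 library. The highest edgeR adjusted p was 0.0845 for Traf2 without IFN-γ 1, 0.1002 for Rbck1 without control 2 and 0.0922 for Il1r2 without control 2. The Rbck1 call was also lost with the GC trend removed (log2 fold change -0.32, edgeR adjusted p = 0.0707).

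The authors' deposited table of their own comparisons called Ripk2 for both agents against IFN-γ, with a log2 fold change of 0.63 and an adjusted p of 0.0226. In that comparison the authors' deposited table called 591 of 20435 genes, 2.89%, and 1 of the 33 is 3.03%. For both agents against control the authors' deposited table called Ripk2 at 0.70 (adjusted p of 0.0321) and Bcl3 at -0.68 (adjusted p of 0.0182). There the authors' deposited table called 717 of 20599 genes, 3.48%, and 2 of the 33 is 6.06%. In the authors' deposited table none of the 33 was called for Remodelin against control, where 129 of 20551 genes (0.628%) were. The same held for both agents against Remodelin, with 1 of 20464 genes called (0.00489%). For IFN-γ against control 32 of the 33 had an adjusted p and none was called. There the authors' deposited table called 122 of 20578 genes (0.593%), where edgeR called 2 here.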

How the data were processed

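RNA sequencing of 12 libraries in 4 groups of 3 was used, with groups and replicate numbers from the sample titles. The authors' deposited table gives raw counts per gene. Per the submitters' processing notes, which give no role or order, the tools included featureCounts 1.5.0-p3, HISAT2 2.0.5 and CASAVA 1.8. The genome build, annotation, strand setting and treatment of multiply matching reads were not given in the sources used here, so none of the table's coordinates are printed and genes with overlapping partners are uncertain. The authors' deposited FPKM values were used for levels between genes only. Log2 fold changes and p-values of comparisons deposited by the authors were read for 1 side-by-side account, and their mean normalised counts per group were not used here.

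The counts of 13474 genes that passed the default group-wise filter of edgeR 4.0.16 (R 4.3.3) were scaled by TMM and entered its quasi-likelihood test. A single fit held all 12 libraries with 1 mean for each group, and p-values were adjusted over all genes tested by the Benjamini-Hochberg method, with calls under 0.05. The average effects and the interaction are contrasts of that fit. The SE is the size of the fold change divided by the root of the F statistic. The common biological coefficient of variation was 18.6%. The floor of 3 counts allows for counting error only, because reads lacking molecular identifiers need not be independent molecules. The test was also run on simulated counts, drawn independently for each gene and without library GC trends. That run therefore cannot speak of calls that moved with those trends.

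The average Remodelin effect, the 33 genes, the 78 other pathway genes and the marker lists were chosen with earlier results of these data known. Values per library were given for each of the 33 genes that was called and for the 3 with the smallest p in each comparison, and at most 4 called genes per comparison were named from the 78. Further values of other genes were chosen after they were seen. Alternatives were DESeq2 1.42.0, edgeR with the size factors of DESeq2, no filter on low counts, at least 50 reads in 3 libraries, a fit of the 2 compared groups alone, a replicate block, removal of the GC trend of each library (lowess, span 0.3, with GC content from GENCODE M21 for 13339 of the tested genes), both of the last together, and each library left out in turn.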

Additional observations from a re-analysis of the deposited data

How the results depend on the processing

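The number of the 31 genes called for the average Remodelin effect, 2, was 4 with no count filter, 6 with DESeq2 and 1 with the GC trend removed, with or without a replicate block. It ran from 0 to 6 with 1 library left out, with 0 without control 2, IFN-γ 1 or Remodelin 3, 1 without IFN-γ 2, IFN-γ 3 or library 1 of both agents, 4 without control 1 or Remodelin 1, and 6 without library 2 of both agents. For both agents against IFN-γ, 0 became 1 with no count filter and 1 with DESeq2, Ripk2 in each case. In the other 5 comparisons 0 of the 31 were called under every alternative tried. The interaction and IFN-γ counts are limited by standard errors of up to 0.69 and 0.49.

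Counts over all genes moved as well, and in the average Remodelin effect 302 higher and 647 lower became 778 and 628 with no count filter and 560 and 784 with DESeq2. For the average Remodelin effect 949 became 491 to 1406 under other settings and 298 to 1960 without 1 library. For Remodelin against control 114 became 22 to 283 and 20 to 216, and for both agents against IFN-γ 49 became 24 to 286 and 10 to 144. For IFN-γ against control 2 became 1 to 52 and 1 to 6, for its average effect 1 became 1 to 325 and 0 to 4, and for both agents against Remodelin 0 became 0 to 6 under other settings.

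Of the alternative values of the named changes, 613 kept direction and side of the threshold, 37 fell below it, 11 passed it and 1 turned, Tlr4 for both agents against Remodelin without library 1 of both agents (-0.051, in a range up to 0.64 over the libraries left out). Most of the 613 belong to changes that were not called in the main fit and stayed uncalled. Only the average Remodelin effects of Ripk2, Bcl3, Traf2, Rbck1 and Il1r2 were called there, with 18 or 19 alternatives each. All 37 lost calls come from these. The cause of these moves was not tested. Same-numbered libraries did not deviate together (correlations from -0.55 to 0.26 over 18 pairs), so the replicate block is given only here. With it 2 of the 31 were called for the average Remodelin effect (edgeR adjusted p = 0.0316 for Ripk2 and 0.0468 for Bcl3), and 578 genes in all.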
